A study of Homo sapiens with 4 samples.

Results

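GRB2 and 58 further protein-coding genes named with it lie together on the long arm of chromosome 17, in bands q24 to q25, and their RNA was compared between vincristine-resistant and parental RD cells. The members were chosen by name, with their expression in this same comparison already known, so their fold changes are a description of the block and were not tested as a finding. Of the 59 names, 58 have a row among the 18375 genes of the deposited table. RAB37, a vesicle traffic GTPase gene, was not analysed here. All 58 met the filter of at least 10 normalized counts in at least 2 libraries. One of them, EVPL, met it through the resistant libraries alone.

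RD is an established human line of fusion-negative rhabdomyosarcoma, a tumour of the skeletal muscle lineage. The parental group is 2 libraries of untreated RD cells, labelled wild type. The resistant group is 2 libraries of RD cells, also labelled wild type, that were carried through rising doses of vincristine, a vinca alkaloid that blocks the mitotic spindle. Per the labels, a first dose of 1 to 1.5 nM removed 80 to 90% of the cells, each later dose was 10 to 20% above the last, and after 9 to 12 months the IC50 had risen at least 100-fold. The labels do not say whether the resistant cells are 1 clone or 1 selection, whether drug was present at harvest, or whether replicates are separate cultures, so the spread between libraries may be technical.

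Whole reads recovered from the table summed to between 58861281 and 67690557 per library. The table lists 9 of 11 myogenic markers, among them MYOD1, MYOG and DES. Their summed level was 109960 to 110280 normalized counts in parental and 207585 to 212672 in resistant libraries. MYOD1 did not share this rise, with 16936 and 16241 against 15213 and 16685 (log2 fold change -0.06, limma adjusted p = 0.153). The other 8 were higher at a limma adjusted p below 0.05, as were 32.7% of all genes tested. Markers of other lineages also moved. The 6 epithelial markers, led by the keratin gene KRT18, summed to 5122 to 5169 against 14934 to 15093. Of these 6, 3 were higher, CLDN4 was lower and 2 did not pass. The 3 listed of 5 neural crest and glial markers summed to 95.7 to 112 against 131 to 139. Of 5 endothelial markers only TEK is listed, at 188 to 210 against 1690 to 1729, and of 6 blood markers only CD14, at 28.8 to 29.97 against 34.6 to 49.6. The markers without a row were not analysed here. The part of these shifts in the results below was not tested.

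Neighbouring genes on a chromosome arm are mostly transcribed as separate units, each to its own level, although some pairs start head to head from a shared promoter stretch. The members have no common function. They encode signalling proteins such as the RAS pathway adaptor GRB2 and the mTORC1 scaffold RPTOR, ubiquitin and SUMO proteins, chromatin and RNA factors, vesicle traffic proteins, enzymes and membrane proteins. DNA copy number was not analysed here.

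Promoter sequences are shown for 4 members, to set side by side members that were all lower: the first member by position (PRKCA), the last (RPTOR), GRB2, and the member with the most normalized counts (SUMO2). Each run is the 150 bases from 200 to 51 bases before the RefSeq start, on GRCh38.p14, written in the direction of the gene. Capitals mark a GC box (GGGCGG on either strand) or a CCAAT box (CCAAT on either strand). The windows are chr17:66302413-66302562 on the plus strand for PRKCA, chr17:75183010-75183159 on the minus strand for SUMO2, chr17:75405729-75405878 on the minus strand for GRB2 and chr17:80544638-80544787 on the plus strand for RPTOR.
PRKCA: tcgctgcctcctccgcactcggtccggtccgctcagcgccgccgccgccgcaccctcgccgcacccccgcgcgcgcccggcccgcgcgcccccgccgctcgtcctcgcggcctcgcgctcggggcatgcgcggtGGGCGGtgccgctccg
SUMO2: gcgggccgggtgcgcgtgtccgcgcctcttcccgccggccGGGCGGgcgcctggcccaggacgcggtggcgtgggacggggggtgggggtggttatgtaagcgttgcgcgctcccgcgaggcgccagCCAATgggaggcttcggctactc
GRB2: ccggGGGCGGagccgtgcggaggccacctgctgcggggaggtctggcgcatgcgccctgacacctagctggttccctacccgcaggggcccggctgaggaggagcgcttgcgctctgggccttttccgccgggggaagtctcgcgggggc
RPTOR: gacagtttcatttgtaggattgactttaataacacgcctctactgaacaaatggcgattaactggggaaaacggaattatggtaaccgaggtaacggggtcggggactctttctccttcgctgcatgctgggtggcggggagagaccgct

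The 4 windows ranged in GC content from 50.0% (RPTOR) to 84.7% (PRKCA). RefSeq promoters were matched for 44 of the 58 members, taking the first entry of a gene with several. A GC box was present in 26 of the 44, against 31.4% of all 35116 promoter windows of the same length, and a CCAAT box in 10 of the 44, against 23.1%. The CpG dinucleotide occurred 2 to 33 times per window in the members, with a median of 15, against a median of 6 in all windows. The full set of windows was not matched to the members by expression level. A match to these letters is a description of the window and does not show a binding site.

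GRB2, the adaptor that links activated receptor tyrosine kinases to the RAS activator SOS, had 17617 and 17369 normalized counts in the parental libraries and 5885 and 6051 in the resistant libraries. Both resistant values are far below both parental values, at 34.1% of the parental mean. The log2 fold change was -1.55 (SE 0.03, limma on log2 of the normalized count plus 1). GRB2 (ENSG00000177885) spans bases 75318076 to 75405709 of chromosome 17 on the minus strand. In bulk RNA, fewer cells that express a gene and less RNA per cell cannot be told apart.

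The block as a whole had a median log2 fold change of -1.35, with quartiles of -1.63 and -1.03, while the median over all genes tested was 0.00. Of the 58 members, 52 were lower and 3 higher in resistant cells at a limma adjusted p below 0.05, and 3 did not pass. Among all 18330 genes tested, 34.2% were lower and 32.7% higher by the same rule, 66.9% in either direction. A level at least 2-fold lower was found in 44 members, where 6.63% of all genes tested reach it. The groups did not overlap in 57 members, as in 82.1% of all genes tested. These counts restate how the members were chosen. By the adjusted p-values of the authors' deposited table, 51 members are lower and 2 higher, where 29.6% and 27% of its genes are, and the median of the deposited log2 fold changes is -1.36.

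**Figure D1:**
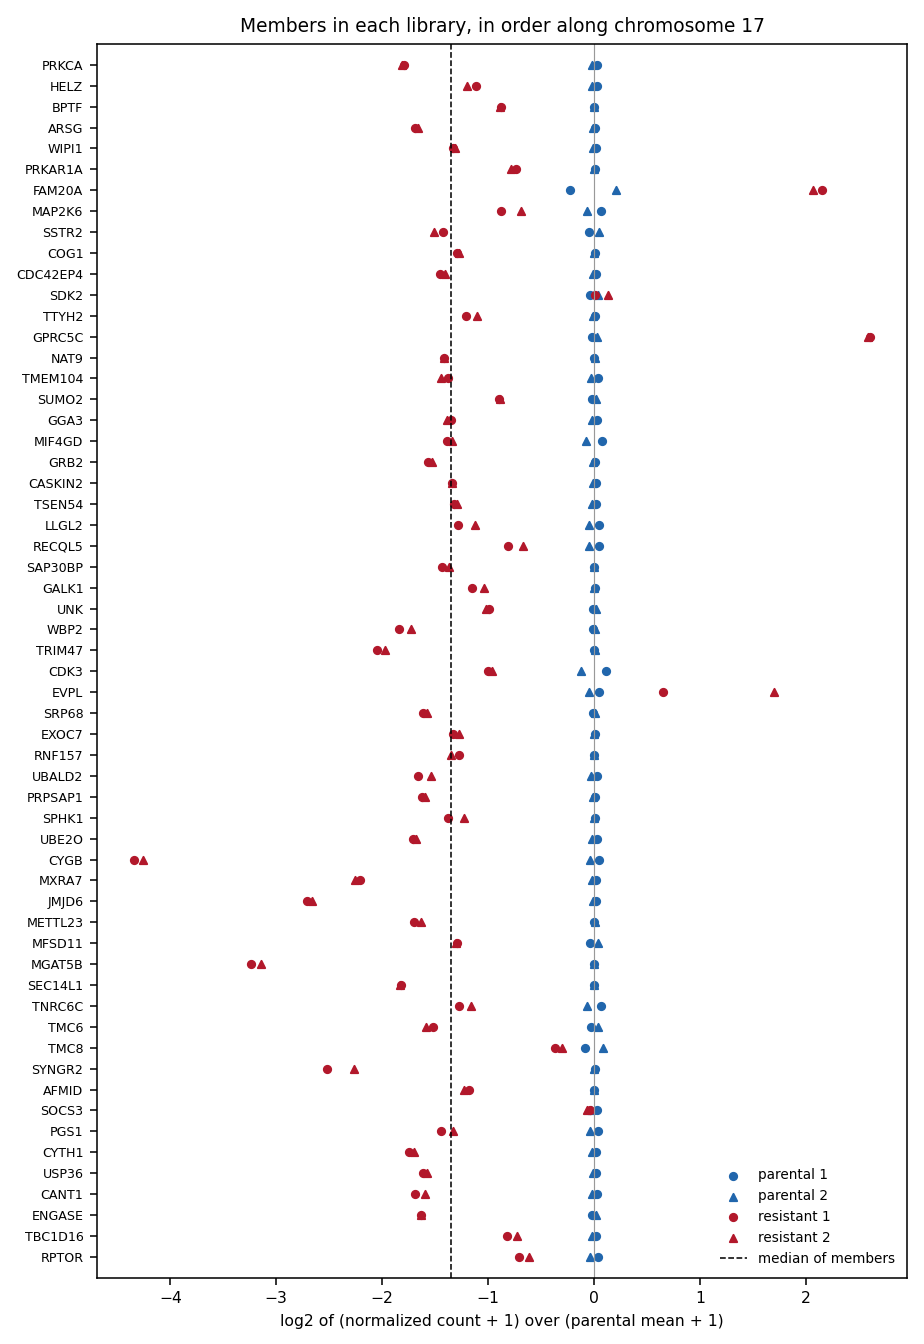
Each row is 1 member, in order along chromosome 17, and each point is the log2 ratio of 1 library to the parental mean (blue, parental; red, resistant; circles, replicate 1; triangles, replicate 2). Most red points gather around the dashed median of -1.35, with CYGB at the far left and GPRC5C at the far right.

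The members centred on a different value from all genes, with a somewhat narrower spread. Their interquartile range was 0.60 on the log2 scale against 0.72 over all genes tested, and their median absolute deviation 0.29 against 0.36. By parental mean, the members' quartiles were wider apart than those of all genes from 5000 normalized counts up. From 10000 up they were -1.74 and -1.10 against -0.39 and 0.14. From 5000 to 10000 they were -1.72 and -1.16 against -0.34 and 0.14. From 1000 to 5000 they were closer together, -1.45 and -1.21 against -0.33 and 0.20. Of the 58 members, 41 lay within 0.5 of the block's median on the log2 scale, a band set around the members' own median that holds 6.72% of all genes tested, and 36 had between 30 and 50% of their parental level. The shift was also much larger than the difference between replicates. Replicate libraries differed by a median of 0.04 on the log2 scale in parental and 0.05 in resistant cells over the members. The median difference between 1 resistant and 1 parental library lay between -1.37 and -1.33 in all 4 pairings. Together the members took 0.729 and 0.720% of the reads in the parental libraries and 0.285 and 0.289% in the resistant libraries.

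The median was below -1 in members of each level from 100 normalized counts up, and it was lowest in the most highly expressed. The 15 members with a parental mean of 10000 or more had a median log2 fold change of -1.60, the 17 between 5000 and 10000 a median of -1.41, and the 16 between 1000 and 5000 a median of -1.31. The 6 between 100 and 1000 had a median of -1.28. All genes tested at the same 4 levels had medians of -0.12, -0.09, -0.05 and 0.01. Genes between the first and the last member that are not members had medians of -1.18, -1.41, -1.53 and -1.47. In these the shift was smallest at the highest level, so the order by level in the members is not shared by their neighbours. The 4 groups of members also hold GPRC5C, SDK2 and SOCS3, which were not lower. The 4 members under 100, FAM20A, EVPL, CDK3 and TMC8, ranged from -0.98 to 2.13. Across the 58 members the Spearman correlation of parental level with log2 fold change was -0.37, a description over genes that share the same libraries. The same parental values enter both measures and set the level groups, which by itself favours lower fold changes at higher levels. The size of this effect was not tested. The levels here are not divided by gene length.

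**Figure D2:**
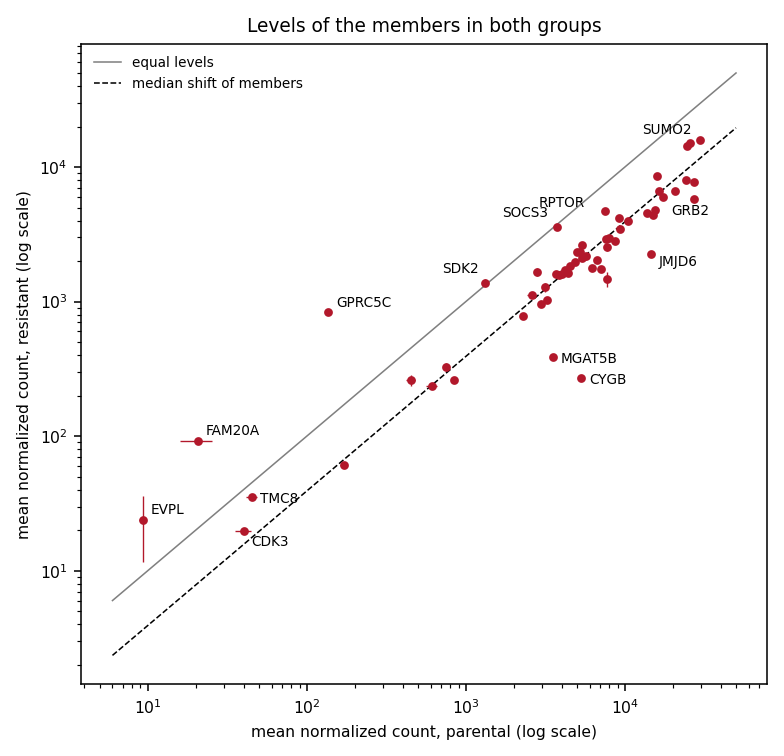
Mean normalized count of each member in parental (x axis) and resistant cells (y axis), both on log scales, with bars for the SD of 2 libraries. Most points lie near the dashed line of the median shift. GPRC5C, FAM20A and EVPL lie above the solid line of equal levels, and SDK2 lies just above it.

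The 3 members with the highest mean over all 4 libraries were lower by less than the block's median, a ranking that itself favours members with a small shift. By parental mean MXRA7 (-2.23) and SEC14L1 (-1.83) rank directly after SUMO2. SUMO2, a small ubiquitin-like modifier of nuclear proteins, had 29319 and 30175 normalized counts in parental and 15912 and 16010 in resistant libraries, a log2 fold change of -0.90 (SE 0.03). PRKAR1A, the regulatory subunit that holds protein kinase A inactive, had 25842 and 25703 against 15490 and 14918 (-0.76, SE 0.03). TBC1D16, a GTPase-activating protein of endosomal traffic, had 24816 and 24209 against 13869 and 14755 (-0.78, SE 0.03). In each of the 3 the groups are well apart, at 53.7, 59 and 58.4% of the parental mean.

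Of 12 signalling members, 10 were lower, 1 was higher and 1 did not pass (median -1.14). At a limma adjusted p below 0.05, 34.2% of all genes tested were lower and 32.7% higher. The role groups here and below were cut from members chosen on this contrast, so their counts restate that choice. PRKCA, a conventional protein kinase C, had 6299 and 6089 normalized counts in parental against 1781 and 1760 in resistant libraries (-1.81, SE 0.04). CYTH1, an exchange factor that activates ARF GTPases, had 6766 and 6584 against 1990 and 2054 (-1.72, SE 0.04). These 2 were among the lower members of the signalling group, both near 30% of the parental mean. SPHK1, the kinase that makes sphingosine 1-phosphate, stood at -1.30 (SE 0.05), the stress kinase gene MAP2K6 at -0.79 (SE 0.10), the somatostatin receptor gene SSTR2 at -1.47 (SE 0.16) and CDC42EP4, an effector of CDC42, at -1.43 (SE 0.04).

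SOCS3, a feedback inhibitor of JAK and STAT signalling, was an exception within the block. It had 3811 and 3673 normalized counts in parental and 3628 and 3572 in resistant libraries, so that the groups lie side by side without overlap. Its log2 fold change was -0.06 (SE 0.04) and did not pass. The nearest tested genes on either side of SOCS3, the noncoding AC087645.2 and AC061992.1, stood at -0.51 and -1.55, and the next member, the phosphatidylglycerol phosphate synthase gene PGS1, at -1.39. GPRC5C, an orphan receptor gene of the retinoic acid-induced family, was the highest member. It had 134 and 139 normalized counts in parental against 838 and 825 in resistant libraries (2.59, SE 0.09), about 6.08-fold higher. CDK3, a cyclin-dependent kinase gene, had 43.5 and 36.8 against 19.5 and 20.0 (-0.98, SE 0.30). Since 91.2% of its exonic bases are shared with the read-through gene TEN1-CDK3 on the same strand, the value of CDK3 is uncertain. Its call did not hold when parental replicate 1 was left out (limma adjusted p = 0.0501) or with DESeq2 (DESeq2 adjusted p = 0.0635).

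All 6 ubiquitin and SUMO members were lower (median -1.60), against 34.2% of all genes tested. TRIM47, a ubiquitin ligase gene, had 7024 and 7064 normalized counts in parental and 1703 and 1794 in resistant libraries (-2.01, SE 0.04), which is 24.8% of the parental mean. An antisense gene, AC087289.5, covers 51.5% of the exonic bases of TRIM47, and no strand setting is stated for the counting, so their reads cannot be told apart. UBE2O, a large enzyme that both conjugates and ligates ubiquitin, had 15649 and 15126 against 4703 and 4810 (-1.69, SE 0.03). USP36, a nucleolar deubiquitinase, had 13911 and 13612 against 4485 and 4613 (-1.60, SE 0.03).

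All 5 members that act on chromatin, DNA and transcription were lower (median -1.40), against 34.2% of all genes tested. JMJD6, a lysyl hydroxylase that acts on splicing factors, had 14638 and 14356 normalized counts in parental and 2214 and 2284 in resistant libraries (-2.69, SE 0.04). At 15.5% of the parental mean it lay well under the block's median. Its neighbour METTL23, a methyltransferase gene, had 3239 and 3254 against 1001 and 1045 (-1.67, SE 0.05), and SAP30BP, a binding partner of a histone deacetylase complex subunit, had 10500 and 10530 against 3897 and 4075 (-1.40, SE 0.03). Nearer to parental level were BPTF, the largest subunit of the chromatin remodeller NURF (-0.88, SE 0.03), and the DNA helicase gene RECQL5 (-0.74, SE 0.05).

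The 6 RNA, translation and protein targeting members were all lower, against 34.2% of all genes tested. Their range was the narrowest of any role group, from -1.60 to -1.01. SRP68, a subunit of the signal recognition particle, had 24108 and 24492 normalized counts in parental against 7914 and 8138 in resistant libraries (-1.60, SE 0.03). TSEN54, a subunit of the tRNA splicing endonuclease, had 4281 and 4177 against 1688 and 1721 (-1.31, SE 0.04). HELZ, an RNA helicase gene, had 5307 and 5141 against 2417 and 2266 (-1.16, SE 0.04). The zinc finger gene UNK was at -1.01 (SE 0.04) and TNRC6C, a scaffold of miRNA silencing, at -1.22 (SE 0.05).

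Each of the 8 vesicle traffic, polarity and autophagy members was lower as well (median -1.31), against 34.2% of all genes tested. SYNGR2, a synaptogyrin of vesicle membranes, had 7713 and 7650 normalized counts in parental and 1341 and 1597 in resistant libraries (-2.39, SE 0.05). SEC14L1, a lipid-binding protein gene, had 27291 and 27256 against 7713 and 7664 (-1.83, SE 0.03). EXOC7, a subunit of the exocyst that tethers vesicles to the plasma membrane, had 16358 and 16220 against 6468 and 6720 (-1.30, SE 0.03). The Golgi tether gene COG1 stood at -1.28 (SE 0.04), the adaptor gene GGA3 at -1.37 (SE 0.04), and WIPI1, an autophagy protein gene, at -1.32 (SE 0.04). COG1 shares 21.7% of its exonic bases with FAM104A, EXOC7 26.3% with ZACN and WIPI1 24.3% with ARSG, each on the opposite strand.

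The 10 enzyme genes were all lower (median -1.63), against 34.2% of all genes tested. They included both of the lowest members. CYGB, the oxygen-binding globin cytoglobin, had 5468 and 5158 normalized counts in parental and 261 and 277 in resistant libraries (-4.30, SE 0.06), which leaves 5.06% of the parental mean. MGAT5B, an N-acetylglucosaminyltransferase of complex glycans, had 3534 and 3537 against 373 and 398 (-3.19, SE 0.06), or 10.9% of the parental mean. In both genes the resistant libraries are close to each other and far under the parental libraries. CANT1, a calcium-activated nucleotidase, had 21114 and 20409 against 6428 and 6868 (-1.64, SE 0.03). The other 7 ranged from -1.68 (ARSG, a sulfatase gene) to -1.10 (GALK1, galactokinase).

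The 11 membrane, adhesion and other members were the most varied, with 7 lower, 2 higher and 2 that did not pass (median -1.30). Among all genes tested, 34.2% were lower and 32.7% higher. MXRA7, a matrix remodelling associated gene, had 27680 and 26905 normalized counts in parental and 5915 and 5708 in resistant libraries (-2.23, SE 0.03). WBP2, a coactivator that binds WW domains, had 15004 and 15169 against 4218 and 4549 (-1.78, SE 0.04), and TMEM104, a transmembrane protein gene, 8119 and 7766 against 3058 and 2919 (-1.41, SE 0.04). SDK2, an immunoglobulin superfamily adhesion gene, had 1283 and 1352 against 1321 and 1437 (0.07, SE 0.06). It is the 1 member whose groups overlap, and it passed as higher without resistant replicate 1 (0.13, limma adjusted p = 0.0382).

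Low counts mark the remaining exceptions. FAM20A, a pseudokinase of the secretory pathway needed for enamel, had 17.4 and 23.9 normalized counts in parental and 95.2 and 89.7 in resistant libraries (2.13, SE 0.25). EVPL, the gene of the cornified envelope protein envoplakin, had 9.67 and 8.95 against 15.1 and 32.5 (1.17, SE 0.42). These are 19 reads in the parental and 48 in the resistant libraries, a ratio of 2.61 with an exact 95% interval of 1.51 to 4.71 that covers counting error only. The call of EVPL did not hold when resistant replicate 2 was left out (0.65, limma adjusted p = 0.333), with DESeq2 (DESeq2 adjusted p = 0.0829) or in a test against a 1.2-fold change (limma treat adjusted p = 0.0571). TMC8, a transmembrane channel-like gene, had 42.5 and 47.7 against 34.6 and 36.3 (-0.34, SE 0.25) and did not pass.

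The members lie within 14.7 Mb, from base 66302636 (PRKCA, at the centromere side) to base 80966371 (RPTOR, at the telomere side) of chromosome 17 on GRCh38. Another 108 genes of the table start between the first and the last member. Of these, 87 were lower, 4 higher and 17 did not pass, with a median of -1.26 (limma adjusted p below 0.05, against 34.2% lower and 32.7% higher among all genes tested). The members were picked from this same stretch, so its other genes are a description too. Among the 75 protein-coding ones the median was -1.30.

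The other genes of the stretch had their own extremes. Lowest were BTBD17, with 382 parental and 5 resistant reads (a 73.8-fold lower level, exact 95% interval 31.4 to 229), and the potassium channel gene KCNJ2, with 182 against 2 reads (87.9-fold lower, exact 95% interval 24 to 732). The antisense gene KCNJ2-AS1 had 54 reads against 0, at least 17.4-fold lower against a floor of 3 reads over the group. Highest were the long noncoding RNA LINC01993, with 3 parental and 101 resistant reads (34.8-fold higher, exact 95% interval 11.6 to 172), the kinesin gene KIF19 (1.87, SE 0.28) and the leukocyte receptor gene CD300C (1.21, SE 0.38). Of these 6 genes, all but KIF19 reached 10 normalized counts in both libraries of 1 group only, so they met the filter through the group where they are high. The intervals cover counting error only.

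**Figure D3:**
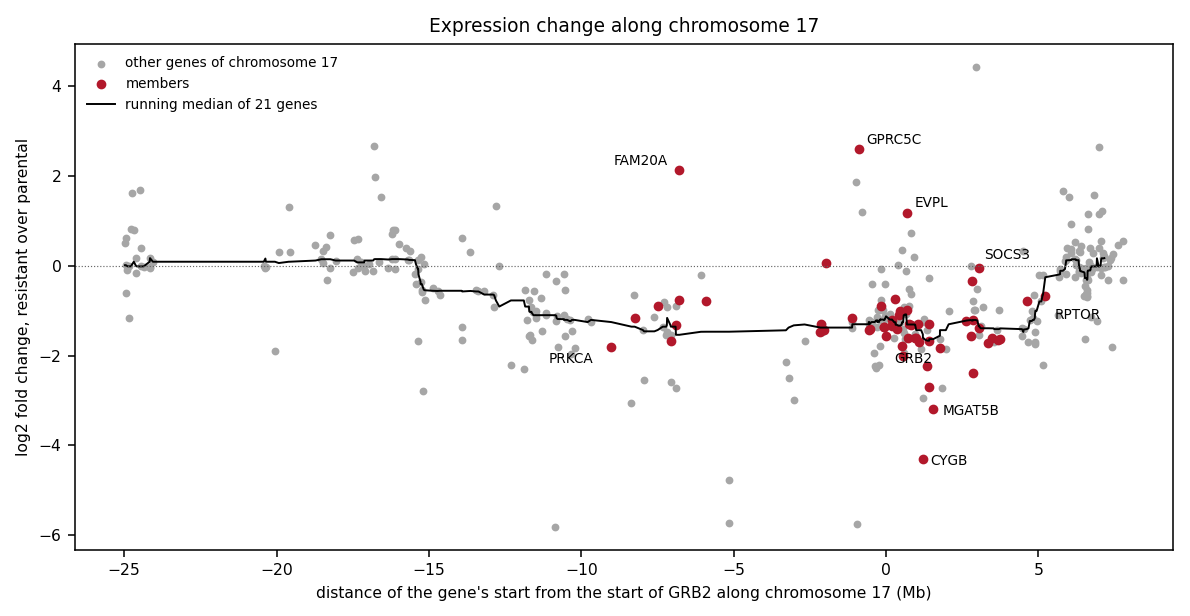
Each point is 1 gene of chromosome 17, from 25 Mb before GRB2 to the end of the chromosome, at the distance of its lowest coordinate from that of GRB2 (x axis, Mb) and at its log2 fold change of resistant over parental cells (y axis). The line, the running median of 21 genes, lies near 0 at the left of the plot, steps down before PRKCA, lies below 0 across the members and returns to near 0 beyond RPTOR.

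On the telomere side the shift ended near RPTOR. RPTOR, the scaffold that brings substrates to the mTORC1 kinase complex, had 7691 and 7296 normalized counts in parental and 4583 and 4879 in resistant libraries (-0.66, SE 0.04), which is 63.1% of the parental mean and the smallest shift of any called member that was lower. The next genes toward the telomere were AC127496.1, an antisense gene (-1.09, SE 0.29), CHMP6 (-0.25, SE 0.06), BAIAP2-AS1 (-0.11, SE 0.05), BAIAP2 (-0.07, SE 0.04) and AATK (1.67, SE 0.10). BAIAP2-AS1 and BAIAP2 did not pass (limma adjusted p = 0.0530 and 0.135). From the start of RPTOR to the end of the chromosome, 77 further genes had a median of -0.01, with 21 higher and 23 lower.

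On the centromere side the shift ran on past PRKCA. The 5 genes next to it were lower, at -1.95 (AMZ2P1, a pseudogene, SE 0.07), -1.46 (GNA13, a G protein subunit gene, SE 0.04), -1.84 (RGS9, SE 0.34), -1.18 (AXIN2, a WNT feedback gene, SE 0.09) and -1.25 (CEP112, SE 0.06). The 35 genes that start between 63 Mb and PRKCA had a median of -1.18, with 32 lower at a limma adjusted p below 0.05 and every log2 fold change at or below -0.17. Further out the collagen receptor gene MRC2, which starts at base 62627401, had 18920 and 19070 normalized counts in parental and 18640 and 19222 in resistant libraries (-0.01, SE 0.03), and its neighbour TANC2, from base 63009556, had 13504 and 13194 against 2925 and 2816 (-2.22, SE 0.04). Beyond MRC2 the kinase gene TLK2 (-0.91, SE 0.04) and METTL2A (-0.64, SE 0.05) were lower again, so MRC2 does not mark the end of the shift. These 4 genes were picked after their values were seen. Over the whole stretch from 60 Mb to PRKCA, 45 of 56 genes were lower and 2 higher, with a median of -1.02. The 723 genes of chromosome 17 tested before 60 Mb had a median of 0.09. All genes not placed on chromosome 17, those without a position included, had a median of 0.01.

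Strand, GC content and length of the transcript, level and exonic overlap were also described for the members. They lie on both strands, 28 on the plus and 30 on the minus strand. Their longest annotated transcripts had a median GC content of 57%, from 38.5 to 66.4%, against 48.7% over all genes, and a median length of 3827 bases against 3112. The median member ranked at the 82.9th percentile of parental level among the genes tested, and the comparisons of GC content and length were not matched by level. Exonic overlap of 10% or more with 1 other gene was found for 13 members. Without them the median of the other 45 was -1.37.

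Relatives elsewhere in the genome gave a comparison within gene families. For 35 members 1 close relative outside the block was listed, and 31 pairs had both genes tested. The relatives had a median of -0.06 against -1.20 for the members of these pairs, with 10 relatives higher, 15 lower and 6 not passed, and the relative lay above its member in 24 of the 31 pairs. The list was drawn up with the members' values known, and the 6 relatives named here were picked after their values were seen. PRKCB, the relative of PRKCA, went up from a mean of 18.5 ± 7.95 to one of 195 ± 8.68 normalized counts (SD, n = 2, log2 fold change 3.39, SE 0.24). MB, the gene of myoglobin and a relative of CYGB, rose from 25.98 ± 0.181 to 108 ± 0.922 (2.01, SE 0.22). SUMO3, close to SUMO2 in sequence, had 9504 ± 120 against 9922 ± 202 (0.06, SE 0.03) and did not pass. PRKAR1B fell from 8573 ± 168 to 4527 ± 305 (-0.92, SE 0.04), near its relative PRKAR1A, and SOCS1 fell from 1430 ± 99.4 to 889 ± 45.3 (-0.68, SE 0.06) while SOCS3 did not pass. CYTH2, the relative of CYTH1, fell by 0.55 on the log2 scale (SE 0.04).

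**Figure D4:**
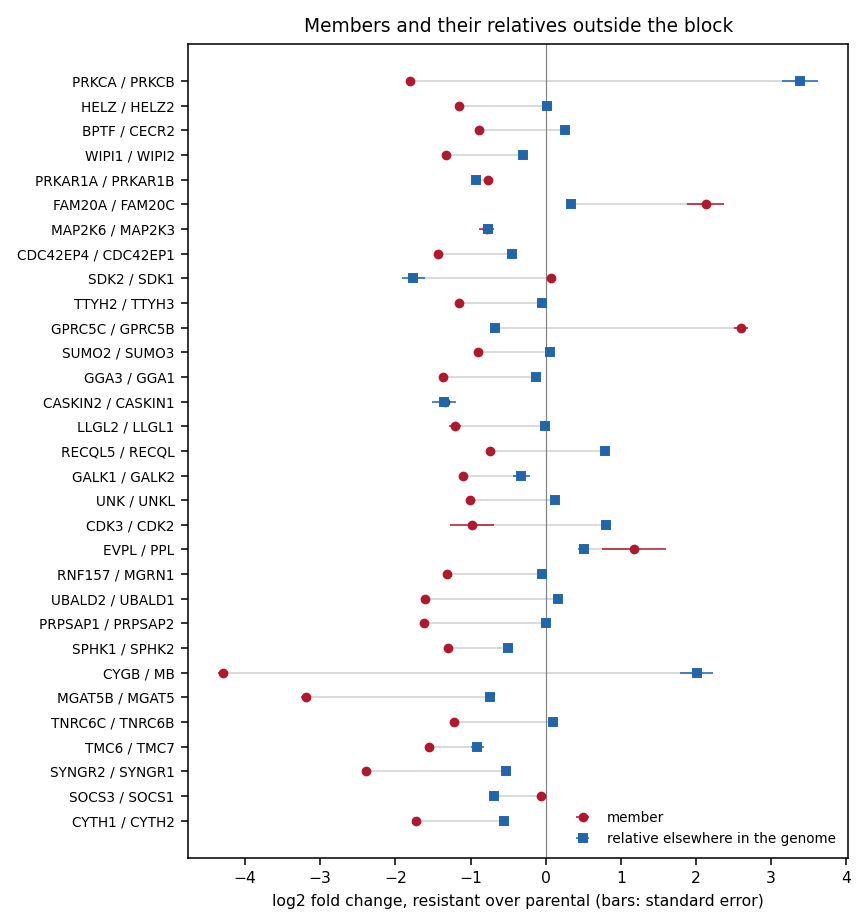
Log2 fold change of 31 members (red circles) and of 1 relative of each outside the block (blue squares), with bars for the standard error, in order along chromosome 17. The relative lies to the right of its member in 24 of the 31 pairs.

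Partners of the members in protein complexes and pathways, encoded elsewhere, were counted in 10 lists. Over these lists and the relatives together, 131 genes were tested, of which 41 were higher and 64 lower at a limma adjusted p below 0.05, or 31.3% higher and 48.9% lower, against 32.7% and 34.2% of all genes tested. Their median was -0.08. Of all 5502 genes with a parental mean from 1000 to 5000, 2473 were lower and 1811 higher. The median parental mean of the list genes was 3254 against 875 over all genes. Whether level has a part in the counts of the lists was not tested. In a test against a 1.2-fold change 17 of the 131 list genes were higher and 28 lower, and with an edgeR dispersion fixed at 0.01 19 and 30.

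Among 16 partners of GRB2, whose median was -0.22, 5 rose, 10 fell and FRS3 did not pass. The endocytic GTPase gene DNM2 fell from 18776 ± 295 to 12576 ± 387 normalized counts (SD, n = 2, log2 fold change -0.58, SE 0.03, limma adjusted p = 2.84e-15). The ubiquitin ligase gene CBLB fell from 2582 ± 28.7 to 1470 ± 47.01 (-0.81, SE 0.05, limma adjusted p = 1.83e-14). The 19 mTORC1 partners and regulators around RPTOR had a median of -0.14, with 2 that rose and 11 that fell. The RAG GTPase gene RRAGD fell from 3158 ± 134 to 1665 ± 7.67 (-0.92, SE 0.05), and AKT1S1, an inhibitory subunit, from 15254 ± 265 to 10934 ± 431 (-0.48, SE 0.03). Of 8 other protein kinase A subunits and inhibitors, 2 rose and 6 fell (median -0.24). Beside PRKAR1B, the inhibitor gene PKIB rose from 29.04 ± 12.4 to 406 ± 42.9 (3.82, SE 0.20).

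Of the lists around single subunits, most held both higher and lower genes, while those around COG1 and BPTF held no gene called lower. The shifts were small, with list medians from -0.19 (exocyst) to 0.16 (COG complex). Among all genes tested, 34.2% were lower and 32.7% higher by the same rule. Of 12 genes of the p38 pathway around MAP2K6, 3 rose and 6 fell, with the upstream kinase gene MAP2K3 (-0.76, SE 0.06) and the target kinase gene MAPKAPK3 (-0.44, SE 0.04) lower. Of 16 SUMO conjugation genes, 4 rose and 8 fell, with the SUMO protease gene SENP5 lower (-0.36, SE 0.04). Of 7 genes of the signal recognition particle and its receptor, 3 rose and 2 fell, with SRP9 higher (0.25, SE 0.03) and SRP72, the direct partner of SRP68, lower (-0.25, SE 0.03). Of 8 exocyst genes, 2 rose and 6 fell. EXOC2, on chromosome 6, stood at -1.54 (SE 0.05) and EXOC1 at -0.35 (SE 0.05). Of 7 other COG complex genes, 4 rose, with COG2 (0.69, SE 0.05) and COG6 (0.34, SE 0.04) the clearest, and all 7 log2 fold changes were 0.03 or more. Of 4 tRNA splicing endonuclease genes, 2 fell, with TSEN34 lower (-0.69, SE 0.04). Of 6 remodelling partners of BPTF, 5 rose, among them RBBP7 (0.21, SE 0.03) and CECR2 (0.26, SE 0.04), and SMARCA1 did not pass (-0.06, limma adjusted p = 0.0774). No list was tested as a set.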

How the data were processed

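Poly(A)-enriched RNA of 4 libraries was sequenced by the authors. The submitters' processing notes name GRCh38, DESeq2, featureCounts (Subread 1.5.2), STAR 2.5.2b and bcl2fastq 2.17. Which annotation was used, and whether reads were counted by strand, is not given in the sources used here. Values of the deposited signal columns are normalized counts: within each library, 100% were whole multiples (tolerance 0.01) of a single step, so each is a read count over a size factor. The log2 fold changes and p-values of the deposited table are the authors' own, per the file headers.

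A total of 18330 genes reached 10 normalized counts in 2 or more libraries. They were tested with limma 3.58.1 (eBayes with trend, R 4.3.3) after adding a pseudocount of 1 and taking log2, with group as the only term. P-values were adjusted by Benjamini-Hochberg across these genes, with a threshold of 0.05. Fold changes on this scale understate changes of low genes. edgeR 4.0.16 and DESeq2 1.42.0 on recovered reads were alternatives. The common dispersion between replicates was 0.000566 (edgeR). The procedure was tested on simulated data. GENCODE 29 on GRCh38 placed 96.9% of the genes. Promoters came from RefSeq. Members, lists and roles were chosen with earlier results of these data known. Named members are GRB2, RPTOR, the 5 lowest and 5 highest, the 3 highest and 3 lowest in mean level, the ends of the block, the 3 of each role with the smallest p, and those not passed. Other members were named after their values were seen, to complete their role groups. The labels give both groups replicates 1 and 2 without saying what the numbers share. Some named list genes are not reported here.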

Additional observations from a re-analysis of the deposited data

How the results depend on the processing

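The count of 52 lower members was 51 with DESeq2 and without parental replicate 1, the lost gene being CDK3 in both, and 52 under every other setting that kept all members, the fit with a replicate block included (median -1.35 there, the same as without). Leaving out the 13 members with shared exonic bases left 39 of 45 lower. No named member changed direction. The median of the members was -1.32 and that of the other genes in the stretch -1.22 with libraries scaled to the same total, a setting that moved the median of all genes to 0.04. With single libraries left out the median of the other genes ran from -1.30 to -1.25. Higher genes among them numbered 2 with DESeq2. Against 1.2-fold 3380 genes were higher and 3414 lower in all, and 17 and 28 in the lists. With the edgeR dispersion fixed at 0.01, a value assumed for separate cultures and added once the data had been seen, 3880 genes were lower in all, and 19 list genes were higher and 30 lower. The cause of these moves was not tested, except that a stricter test passes fewer genes. Same-numbered libraries did not deviate together (r = -0.03 across 18330 genes). Depth limits the members under 100 normalized counts.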
